A study of Mus musculus with 7 samples.

Results

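Tuft cells are a rare type of intestinal epithelial cell, and 10 of their genes were examined in the ileum of mice on a normal or a low cystine diet. The genes were Pou2f3, Gfi1b, Trpm5, Dclk1, Avil, Sh2d6, Il25, Alox5, Alox5ap and Ptgs1, and each was found once, by its gene name, among the 38293 genes of the deposited count table. RNA of ileal scrapings, which contain the epithelium with its lamina propria and leave the muscle behind, was sequenced from 7 mice. All mice were male C57BL/6NRJ mice of 8 weeks with no genetic modification named, and were housed individually. For 1 week they received a high fat, low calcium AIN93G control diet (40% of energy from fat). During the 2 weeks that followed, 4 mice stayed on this diet (normal cys; libraries X17SI4, X32SI4, SI9 and X1SI4) and 3 received the same diet with its 0.3% of added L-cystine replaced by 0.11% alanine (low cys; libraries X23SI4, X26SI4 and X10SI4). The comparison answers whether the tuft cell genes differed between the diets.

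Tuft cells sense the contents of the gut lumen with a signaling cascade that resembles that of taste cells. When activated they release the cytokine IL-25, which stimulates group 2 innate lymphoid cells in the lamina propria, and lipid mediators made from arachidonic acid. They develop from crypt stem cells under the transcription factor Pou2f3, and the kinase Dclk1 is their most used marker. In whole scrapings, fewer tuft cells and less RNA per tuft cell cannot be told apart.

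The libraries held between 14888760 and 22412703 counts, and values are given as raw read counts and as CPM, read counts scaled to 1e6 counts of TMM-normalized library size. Of the 10 genes, 9 passed the filter on low counts and were among the 14869 genes tested with edgeR's quasi-likelihood test. Il25 did not pass. Normal cys library X17SI4 stood apart from the other 3 normal cys libraries. It was the lowest of the 4 normal cys libraries in 10 of the 10 tuft cell genes, whereas it was the lowest of the 4 in 26.5% of all genes tested. It was also the lowest of the 4 in 36 of 57 further tuft cell genes. Its total of 19712355 counts was within the range of the other libraries. The reason why X17SI4 stood apart was not tested, and no value used here checks its diet label, so it is not known whether the values with it or without it describe the diets better. The main results are therefore given with and without X17SI4, and its omission was chosen after its values were seen.

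All 10 genes were detected, at low levels. Per kilobase of exon, Sh2d6 had the highest mean over the 7 libraries (9.78 ± 3.73 RPKM, SD, n = 7) and Il25 the lowest (0.194 ± 0.116 RPKM, SD, n = 7). Between them, in order of their means, were Alox5ap (3.47 RPKM), Avil (3.46 RPKM), Trpm5 (3.09 RPKM), Ptgs1 (1.85 RPKM), Dclk1 (1.08 RPKM), Alox5 (0.800 RPKM), Pou2f3 (0.549 RPKM) and Gfi1b (0.416 RPKM). Sh2d6 was above Alox5ap, Ptgs1 above Dclk1, Alox5 above Pou2f3 and Gfi1b above Il25 in 7 of 7 libraries. The levels of Alox5ap, Avil and Trpm5 were not separated, since Alox5ap was above Avil in 3 libraries and Avil above Trpm5 in 5. For every pair of neighbors in this order, the ranges over the libraries overlapped. The exon length counts all annotated exons of a gene, so the level of a gene with alternative promoters such as Dclk1 (12991 bases) is understated where only a short transcript is made.

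Summed over the 10 genes, the level was 49.2, 108.6, 96.0 and 102.5 CPM in normal cys libraries X17SI4, X32SI4, SI9 and X1SI4. In low cys libraries X23SI4, X26SI4 and X10SI4 it was 65.6, 66.4 and 65.7 CPM. The 3 low cys libraries thus lay close together, above X17SI4 and below the other 3 normal cys libraries. The means were 89.1 ± 27.1 CPM (normal cys, SD, n = 4) and 65.9 ± 0.459 CPM (low cys, SD, n = 3), a ratio of 0.740. This difference was smaller than the spread among the normal cys libraries. On the scale of total counts without TMM factors, the ratio was 0.818.

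**Figure D1:**
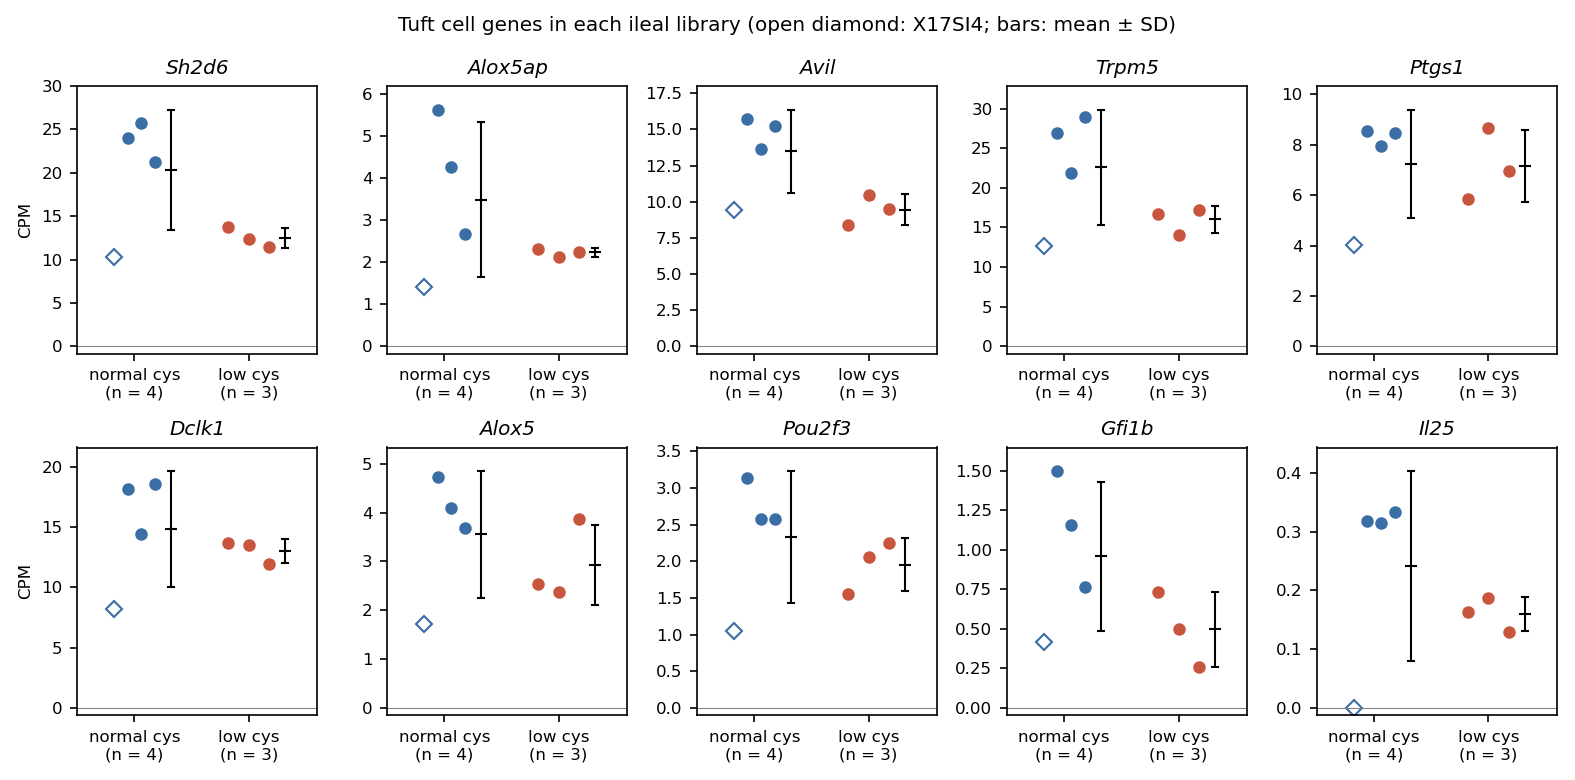
CPM (vertical axis, 0 marked by a line) of each of the 10 tuft cell genes in the normal cys (blue) and low cys (red) libraries, 1 point per mouse, with the mean ± SD in black. Panels are in order of the level per kilobase. Library X17SI4 (open diamond) is the lowest normal cys library in all 10 panels, and with it the diets overlap in every panel.

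Of the 9 genes tested, 9 had a negative log2 fold change (low cys minus normal cys), against 48.8% of all genes tested. The median log2 fold change was -0.50, against 0.01 over all genes tested. With an unadjusted p-value under 0.05 were 2 genes, Avil and Sh2d6, both lower on the low cystine diet, where 2.83% of all genes tested were lower and 5.49% differed in either direction. With an adjusted p-value under 0.05 were 0 of the 9 (Benjamini-Hochberg over all genes tested in edgeR, limma-voom and DESeq2). In 0 of the 10 genes did all low cys libraries lie below all normal cys libraries, where 3.51% of all genes tested did, and in 0 did they lie above them, where 3.32% did. Exact permutation tests of the diet labels, two-sided, gave p-values between 0.114 and 1 for the 10 genes, and the smallest value they can give is 0.0286.

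Without X17SI4, 6 of the 9 genes tested had an unadjusted edgeR p-value under 0.05, all lower on the low cystine diet, where 5.63% of the 14786 genes tested were lower by the same rule. In 8 of the 10 genes all low cys libraries then lay below all normal cys libraries. Among the 9 tested, which leave out Il25, 7 did, where 9.39% of all genes tested did. Adjusted p-values of the 9 genes were between 0.224 and 0.686 in this fit, so 0 passed the adjusted threshold. With 3 against 3 libraries, the smallest p-value an exact permutation test can give is 0.1. X17SI4 was the lowest normal cys library in all 10 genes, so its omission raised the normal cys mean of each. The shares over all genes carry no such choice, so they are no matched background for these counts.

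**Figure D2:**
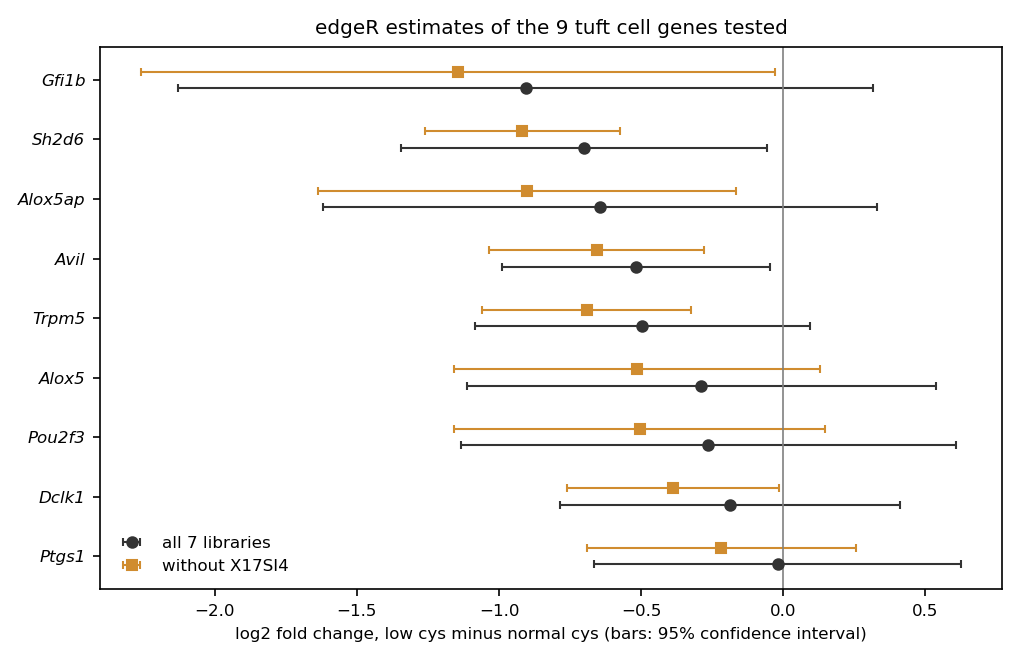
Log2 fold change of the 9 tested tuft cell genes (horizontal axis, low cys minus normal cys) with the 95% confidence interval from edgeR, with all 7 libraries (black circles) and without library X17SI4 (orange squares). With all libraries, only the intervals of Sh2d6 and Avil lie below 0. Without X17SI4, those of Gfi1b, Alox5ap, Trpm5 and Dclk1 also do.

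Both transcription factors of the list were covered by few reads. Pou2f3, a POU domain factor required for the formation of tuft cells, is annotated in GRCm38, the build of all positions given here, at chromosome 9 from 43122628 to 43210369. There were 20, 69, 49 and 54 counts of it in X17SI4, X32SI4, SI9 and X1SI4, and 38, 33 and 35 counts in X23SI4, X26SI4 and X10SI4. Scaled to library size, these were 1.04, 3.13, 2.57 and 2.58 CPM on the normal and 1.55, 2.06 and 2.25 CPM on the low cystine diet. The low cys libraries lay between X17SI4 and the other normal cys libraries. The log2 fold change was -0.26 (SE 0.39, 95% interval -1.14 to 0.61, adjusted p = 0.862 in edgeR), and -0.51 (SE 0.29, adjusted p = 0.5 in edgeR) without X17SI4.

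Gfi1b, a zinc finger repressor that is also expressed in megakaryocytes and red cell precursors, lies on chromosome 2 from 28609450 to 28621982. Its counts were 8, 33, 22 and 16 on the normal and 18, 8 and 4 on the low cystine diet, in the same order. In CPM these were 0.418, 1.498, 1.16 and 0.764 against 0.734, 0.500 and 0.258, and the diets overlapped, with X17SI4 among the low cys values. Without X17SI4 the low cys libraries were all lower, with a log2 fold change of -1.14 (SE 0.49, adjusted p = 0.414 in edgeR). With it, the log2 fold change of -0.91 (SE 0.54, adjusted p = 0.794 in edgeR) was the most negative of the 9 genes, with the widest interval (-2.13 to 0.32). The megakaryocyte, platelet and red cell markers were 10 of 10 in the table, with Ppbp at 0 in all libraries. Their sum was between 54.1 and 110.5 CPM on the normal and between 57.9 and 72.1 CPM on the low cystine diet. Most of it was Gp1bb, with 40.5 to 100.1 CPM on the normal and 49.0 to 60.2 CPM on the low cystine diet. The sum thus does not describe the list as a whole. The part of these cells in the Gfi1b values was not tested.

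Trpm5, the cation channel that opens at the end of the taste-like cascade, lies on chromosome 7 from 143069153 to 143094642 and was the member with most counts. It had 242, 592, 416 and 607 counts in the normal cys and 411, 226 and 267 in the low cys libraries, each in the order used above. These were 12.6, 26.9, 21.9 and 29.0 CPM against 16.8, 14.1 and 17.2 CPM. All low cys libraries were below 3 of the 4 normal cys libraries and above X17SI4. The means were 22.6 ± 7.27 CPM (normal cys, SD, n = 4) and 16.0 ± 1.67 CPM (low cys, SD, n = 3), with a log2 fold change of -0.50 (SE 0.26, unadjusted p = 0.0902 and adjusted p = 0.794 in edgeR). Without X17SI4 it was -0.69 (SE 0.16, unadjusted p = 0.00237 and adjusted p = 0.373 in edgeR). Its exons share 220 bases with Tssc4 on the opposite strand, and without a stated strand setting reads of both genes cannot be told apart there.

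Dclk1, the doublecortin-like kinase by which tuft cells are usually stained, lies on chromosome 3 from 55242526 to 55539064. Counts were 157, 400, 274 and 389 on the normal and 335, 216 and 185 on the low cystine diet. In CPM the values were 8.20, 18.2, 14.4 and 18.6 against 13.7, 13.5 and 11.9. The low cys libraries were again between X17SI4 and the others, but the nearest normal cys library, SI9, was only slightly higher. The log2 fold change was -0.19 (SE 0.26, 95% interval -0.78 to 0.41, adjusted p = 0.861 in edgeR), and -0.39 (SE 0.16, adjusted p = 0.412 in edgeR) without X17SI4. Dclk1 is also expressed in neurons. The list of enteric neuron and glia markers (10 of 10 in the table, Sox10 at 0) summed to between 7.13 and 12.6 CPM on the normal and between 7.31 and 12.4 CPM on the low cystine diet.

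Avil encodes advillin, an actin-binding protein of the villin family found in the apical bundle of tuft cells, and lies on chromosome 10 from 127000709 to 127020994. It had 180, 346, 260 and 319 counts in the normal cys and 205, 168 and 147 in the low cys libraries, or 9.40, 15.7, 13.7 and 15.2 against 8.36, 10.49 and 9.47 CPM. Its separation from the low cys libraries was again broken by X17SI4, which lay within their range. The mean was 13.5 ± 2.87 CPM (SD, n = 4) against 9.44 ± 1.07 CPM (SD, n = 3), with a log2 fold change of -0.52 (SE 0.21, 95% interval -0.99 to -0.05, unadjusted p = 0.0341 and adjusted p = 0.794 in edgeR; exact permutation test, two-sided, p = 0.114). The unadjusted p-value was above 0.05 without TMM factors (0.111 in edgeR) and without X32SI4, SI9, X1SI4, X23SI4 or X10SI4 in turn, where it reached 0.121. Without X17SI4 the log2 fold change was -0.66 (SE 0.16, unadjusted p = 0.00378 and adjusted p = 0.373 in edgeR). The exons share 165 bases with Tsfm on the opposite strand.

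The 250 bases before the start of Avil (RefSeq, GRCm38.p6, plus strand, chr10:127000459-127000708) are shown because they were the promoter of this list with matches to the octamer core. Pou2f3 is a factor of the octamer-binding family. Its correlation with Avil (Pearson's r = 0.779) was near the median of the 36 pairs of tested members (0.775), and an action on Avil was not tested. Matches are in capitals.
Avil: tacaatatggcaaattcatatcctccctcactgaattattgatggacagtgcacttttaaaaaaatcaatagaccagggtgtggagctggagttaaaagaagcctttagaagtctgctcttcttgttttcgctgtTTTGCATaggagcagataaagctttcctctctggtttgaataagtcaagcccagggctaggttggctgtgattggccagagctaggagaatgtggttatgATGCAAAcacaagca
The 7-base core ATGCAAA, on either strand, began 15 bases before the start and, as its reverse complement TTTGCAT, 115 bases before it. Of 32851 promoter windows of the same kind (250 bases before to 50 after a start), 4.63% held this core, and of 8 windows of 7 of the 10 genes, 1 did. The full octamer ATGCAAAT, which contains the core, was in 1.74% of all windows and in 0 of the 8. Promoter windows of Pou2f3, Il25 and Alox5ap were not used here. The motifs were chosen after the sequences were seen, and a match is not a binding site.

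Sh2d6, which encodes an SH2 domain adaptor protein, lies on chromosome 6 from 72513644 to 72521634 and shares no 50-base stretch with the transcripts of another gene. It had 198, 529, 491 and 445 counts on the normal and 336, 199 and 177 on the low cystine diet, or 10.3, 24.0, 25.8 and 21.2 against 13.7, 12.4 and 11.4 CPM. The other 3 normal cys libraries were well above every low cys library, and X17SI4 was below them all. Its log2 fold change was -0.70 (SE 0.28, 95% interval -1.34 to -0.06, unadjusted p = 0.0359 and adjusted p = 0.794 in edgeR; exact permutation test, two-sided, p = 0.143). The unadjusted p-value was above 0.05 without TMM factors (0.0859 in edgeR) and without any single library other than X17SI4, where it reached 0.099. Without X17SI4 the log2 fold change was -0.92 (SE 0.15, unadjusted p = 0.000245 and adjusted p = 0.224 in edgeR).

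Il25, the cytokine through which tuft cells reach group 2 innate lymphoid cells, lies on chromosome 14 from 54932695 to 54935837 and was at the limit of detection. It had 0, 7, 6 and 7 counts in the normal cys and 4, 3 and 2 counts in the low cys libraries. The 0 counts in X17SI4 allow a level of up to 0.157 CPM, which is within the range of the low cys libraries (0.129 to 0.187 CPM), whereas the other normal cys libraries had 0.315 to 0.334 CPM. Over all libraries of a diet there were 20 counts on the normal (95% Poisson interval 12.2 to 30.9) and 9 on the low cystine diet (4.12 to 17.1), or 0.246 and 0.161 CPM. These intervals cover counting error only, and they overlapped. When low counts were not filtered, the log2 fold change was -0.60 (SE 0.91, adjusted p = 0.861 in edgeR).

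The enzymes of lipid mediator synthesis were covered by few reads except Ptgs1. Alox5ap, which presents arachidonic acid to the lipoxygenase of the leukotriene pathway, lies on chromosome 5 from 149265058 to 149288045. It had 27, 124, 81 and 56 counts on the normal and 57, 34 and 35 on the low cystine diet, or 1.41, 5.63, 4.26 and 2.67 against 2.33, 2.12 and 2.25 CPM. Its normal cys libraries were spread widely, with X17SI4 below and the others above all low cys libraries, which lay close together. The log2 fold change was -0.64 (SE 0.43, adjusted p = 0.794 in edgeR), and -0.90 (SE 0.32, adjusted p = 0.382 in edgeR) without X17SI4. Of the 50-base stretches of its transcripts, 6.8% also occur in other genes, the highest share of the 10.

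Alox5, the lipoxygenase itself, lies on chromosome 6 from 116410077 to 116461178. It had 33, 104, 78 and 77 counts against 62, 38 and 60, or 1.72, 4.72, 4.10 and 3.68 against 2.53, 2.37 and 3.86 CPM. Low cys library X10SI4 lay above normal cys library X1SI4, so the diets overlapped also without X17SI4. The log2 fold change was -0.29 (SE 0.37, 95% interval -1.11 to 0.54, adjusted p = 0.849 in edgeR), and -0.52 (SE 0.28, adjusted p = 0.489 in edgeR) without X17SI4.

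Ptgs1, the constitutive cyclooxygenase of prostaglandin synthesis, lies on chromosome 2 from 36230426 to 36252272 and had the smallest estimate. It had 77, 188, 151 and 177 counts on the normal and 143, 139 and 108 on the low cystine diet, or 4.02, 8.53, 7.93 and 8.45 against 5.83, 8.68 and 6.96 CPM. The highest library of all was X26SI4, on the low cystine diet. The means were 7.23 ± 2.16 CPM (SD, n = 4) and 7.16 ± 1.44 CPM (SD, n = 3), with a log2 fold change of -0.02 (SE 0.29, 95% interval -0.67 to 0.63, adjusted p = 0.99 in edgeR). It was -0.22 (SE 0.21, adjusted p = 0.686 in edgeR) without X17SI4 and 0.12 without TMM factors, so its direction was not fixed.

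Alox5, Alox5ap and Ptgs1 are also expressed in macrophages, mast cells or neutrophils of the lamina propria. The macrophage and monocyte markers (11 of 11 in the table) summed to 109.0 CPM in X17SI4 and to between 35.6 and 92.5 CPM in the other normal cys libraries. In the low cys libraries they summed to between 106.3 and 119.3 CPM. Of these 11, 10 had a positive and 1 a negative estimate, with a median log2 fold change of 0.41. An unadjusted edgeR p-value under 0.05 was found in 0 of the 11, against 5.49% of all genes tested. Without X17SI4, 0 of the 11 estimates were negative, with a median of 0.56. In that fit 1 was higher with an unadjusted edgeR p-value under 0.05, against 6.3% of all genes tested. The mast cell markers (10 of 10, Cma1 at 0) summed to between 11.6 and 27.8 CPM on the normal and between 15.2 and 15.8 CPM on the low cystine diet. Of this sum, Kit alone had 8.56 to 10.94 CPM on the normal and 10.24 to 13.05 CPM on the low cystine diet. The neutrophil markers (7 of 7) summed to between 0.143 and 0.788 CPM and between 0.515 and 1.25 CPM, and Ly6g, Mpo and Elane were at 0. The part of these cells in the values was not tested.

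Because a ratio of 2 genes within a library does not depend on its scaling, the 36 ratios between the 9 tested genes were also compared. In 5 of the 36 the diets did not overlap, X17SI4 included, and in 31 they did. Over all pairs of the 14778 tested genes with counts in every library, 6.62% of ratios did not overlap. Each ratio was written in the direction that gave the lower mean on the low cystine diet, so its direction is no result. The 5 were Sh2d6 over Ptgs1, Avil over Ptgs1, Sh2d6 over Dclk1, Avil over Dclk1 and Trpm5 over Dclk1. The ratio of Sh2d6 to Dclk1 CPM was 1.26, 1.32, 1.79 and 1.14 on the normal and 1.00, 0.921 and 0.957 on the low cystine diet. The ratio of Trpm5 to Dclk1 was between 1.48 and 1.56 in the 4 normal cys libraries, and 1.23, 1.05 and 1.44 in the low cys libraries. X17SI4 lay within the other normal cys libraries in the ratios of Sh2d6 and Trpm5 to these genes, and above them in both ratios of Avil. These ratios share genes and were selected for their separation, so they are given without a test.

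The tuft cell genes varied together across the 7 libraries. Over the 36 pairs of tested genes, Pearson's r of log2 CPM across the 7 libraries was positive in 36, with a median of 0.775 and a range from 0.440 to 0.933. Without X17SI4 it was positive in 36 of 36 pairs, with a median of 0.737. For deviations from the mean of each diet, X17SI4 included, the median was 0.833. X17SI4, the lowest normal cys library in all 10 genes, adds to the likeness in these deviations. Without X17SI4, the difference between the diets adds to it. No value leaves out both, so likeness among the other mice within a diet was not tested. The closest pair was Pou2f3 and Alox5 (0.933, and 0.859 without X17SI4). The genes of a pair share the libraries and their scaling, and the values are given as a description. Correlations over all pairs of tested genes were not taken, so these values have no background here.

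Among all other genes tested, the patterns most like the mean of the 9 genes (mean z-score of log2 CPM, 7 libraries) were those of Adcy5 (r = 0.992), Gnrh1 (r = 0.984), Rnf123 (r = 0.979), S100a13 (r = 0.975) and Hexdc (r = 0.974). Without X17SI4 these values were 0.987, 0.962, 0.972, 0.951 and 0.952. Adcy5, an adenylyl cyclase, had 1.25, 2.27, 1.996 and 2.15 CPM on the normal and 1.55, 1.56 and 1.55 CPM on the low cystine diet. Of the other listed tuft cell genes, Plcb2, the phospholipase of the taste-like cascade, ranked 14 of the 14869 genes (r = 0.952) and Chat ranked 17 (r = 0.950). Over the 57 listed genes tested, r was positive in 42 and negative in 15, with a median of 0.651. Over all 14869 genes, r changed sign between rank 7313 (Ptpn18, 0.01) and rank 7579 (Inpp5j, -0.02). The lowest was that of Tas1r3, a taste receptor subunit named after its values were seen (r = -0.78, rank 14370). Without X17SI4, r was positive in 45 of the 57, with a median of 0.565.

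**Figure D3:**
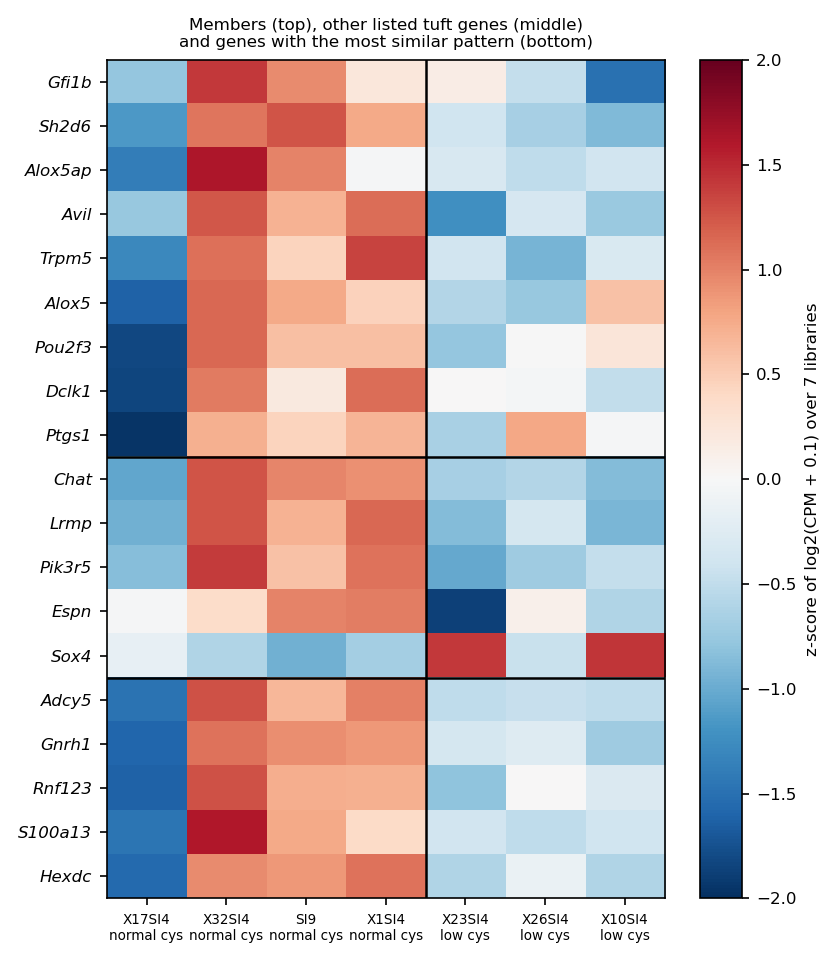
Standardized expression (z-score of log2(CPM + 0.1) over the 7 libraries, blue low and red high) of the 9 tested members (top), 5 of the 6 other listed tuft cell genes with an unadjusted edgeR p-value under 0.05 (middle) and the 5 genes with the most similar pattern (bottom). Columns are libraries, with the diets separated by a line. X17SI4 is blue in all members, and Sox4 is red only in low cys libraries X23SI4 and X10SI4.

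Further tuft cell genes were examined from lists of 62 genes, of which 57 were tested. Of these 57, 5 were lower and 1 was higher on the low cystine diet with an unadjusted p-value under 0.05 in edgeR, where 2.83% of all genes tested were lower and 2.66% higher. The median log2 fold change was -0.20, and 43 of the 57 estimates were negative. Without X17SI4, 14 were lower and 2 were higher by the same rule, where 5.63% and 6.3% of all genes tested were. X17SI4 was the lowest normal cys library in 36 of the 57, against 26.5% of all genes tested. The shares without it are therefore no matched background for these counts. With an adjusted p-value under 0.05 were 0 genes of the lists in either fit.

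The genes of the taste-like cascade (13 listed, 10 tested) had 0 past the unadjusted threshold, and 8 negative estimates. Gnat3, the gustducin subunit of this cascade, had means of 1.66 ± 0.842 CPM (normal cys, SD, n = 4) and 1.03 ± 0.296 CPM (low cys, SD, n = 3), and was named after its values were seen. Itpr3, Itpr2 and Rgs2, the most expressed of the list and not limited to tuft cells, had log2 fold changes of -0.08, -0.16 and 0.18. Without X17SI4 these were 0.03, -0.24 and 0.17.

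Of the genes of immune-type signaling (18 tested), 2 were lower with an unadjusted p-value under 0.05 and 14 had a negative estimate. Of these 2, Pik3r5, a regulatory subunit of a phosphoinositide kinase, had a log2 fold change of -0.56 (SE 0.23, adjusted p = 0.794 in edgeR). Il13ra1 and Il4ra, receptor chains for the type 2 cytokines that expand tuft cells, had estimates of -0.25 and -0.36. For both, X17SI4 was the highest of all libraries (214.8 and 146 CPM), and without it the estimates were -0.18 and -0.13. Inpp5j, a phosphatase, had an estimate of 0.14, and 0.13 without X17SI4.

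Among the cytoskeletal and other markers (18 tested), 3 were lower with an unadjusted p-value under 0.05 and 16 had a negative estimate. Lrmp, a membrane protein used as a tuft cell marker, had means of 12.2 ± 3.98 CPM (normal cys, SD, n = 4) and 7.22 ± 0.893 CPM (low cys, SD, n = 3; log2 fold change -0.76, SE 0.29, adjusted p = 0.794 in edgeR). Chat, the enzyme of acetylcholine synthesis, had 0.522, 1.95, 1.68 and 1.62 CPM against 0.653, 0.687 and 0.580 CPM, a log2 fold change of -1.17 (SE 0.47, adjusted p = 0.794 in edgeR). Espn, an actin-bundling protein of brush borders in general, had a log2 fold change of -0.37 (SE 0.16, adjusted p = 0.794 in edgeR), while Krt18 and Tuba1a were at -0.02 and 0.00.

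Of the further eicosanoid enzymes (6 listed, 5 tested), 0 passed the unadjusted threshold and 3 estimates were negative. Hpgd, Ltc4s and Hpgds had log2 fold changes of -0.22, -0.30 and -0.20. Of the transcription factors (7 listed, 6 tested), 1 passed it and was higher on the low cystine diet. This was Sox4, a factor of crypt progenitors and early tuft cells, with 5.06, 4.31, 3.78 and 4.20 CPM on the normal and 8.89, 4.56 and 8.95 CPM on the low cystine diet (log2 fold change 0.78, SE 0.27, adjusted p = 0.794 in edgeR). Low cys library X26SI4 was within the normal cys range. Atoh1 and Spib were at 0.02 and -0.26. Without X17SI4 the log2 fold changes were -0.71 for Pik3r5, -0.96 for Lrmp, -1.44 for Chat, -0.42 for Espn and 0.87 for Sox4, so each of these 5 estimates was further from 0 than with it.

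The type 2 cytokines to which tuft cells are coupled were barely covered. Il5, Il9 and Il13 had 0 counts in all 7 libraries, which allows up to 3 counts in each, and Il4 had 4 counts in all. Of 12 genes of these cytokines and of group 2 innate lymphoid cells, 5 were tested and 0 passed the unadjusted threshold, which 5.49% of all genes tested passed. Of 6 genes of the epithelial type 2 response, 5 were tested and 0 passed it. Retnlb, which is strongly induced by these cytokines, was not tested, with 30 counts in all 7 libraries.

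Other cell types of the scrapings differed between the libraries as well. The 7 epithelial markers summed to between 15590 and 16620 CPM in the normal cys libraries. In the low cys libraries the sum was between 12400 and 14730 CPM, so the sums did not overlap. Of the 7 genes, 3 (Krt20, Vil1 and Cldn7) were each lower in all low cys libraries, and the others overlapped. The estimate was negative in 6 and positive in 1, Krt19 (log2 fold change 0.20). The paper uses Krt20 as an enterocyte marker, so the sum is not one of epithelium in general. Over all genes tested, 3.51% were lower and 3.32% were higher in all low cys libraries. Relative to this sum, the 10 tuft cell genes were at 3.00, 6.53, 5.97 and 6.57 per 1000 on the normal and at 5.29, 4.51 and 4.63 per 1000 on the low cystine diet, a ratio of the means of 0.871 against 0.740 without this scaling. The low cys libraries then remained below the 3 normal cys libraries other than X17SI4. The stroma markers summed to between 24.3 and 31.2 CPM on the normal and between 37.5 and 43.7 CPM on the low cystine diet. Of 7 stroma genes tested, 2 (Col3a1 and Dcn) were higher in all low cys libraries. The T and B cell markers summed to between 83.6 and 167.3 CPM and between 184.6 and 276.7 CPM. Jchain (Igj in the table) alone had 32.8 to 101.7 against 124.3 to 198.3 CPM, and was the 1 gene of this list without overlap. Of the 8 T and B cell genes tested, 5 had a negative and 3 a positive estimate, with a median log2 fold change of -0.12. The sum thus does not describe the list as a whole. Between the diets there was overlap in the sums of smooth muscle (2.39 to 12.1 against 5.75 to 38.72 CPM), enteroendocrine (206.6 to 368.8 against 240.2 to 249.5 CPM), goblet (9828 to 17700 against 9802 to 10350 CPM) and ileal enterocyte markers (9913 to 17220 against 5877 to 11920 CPM). Of 6 smooth muscle genes tested, 2 (Actg2 and Des) were higher with an unadjusted edgeR p-value under 0.05, against 2.66% of all genes tested. Of 9 enteroendocrine genes tested, 1 (Gcg) was higher in all low cys libraries. Of these 9, 6 had a negative and 3 a positive estimate, with a median log2 fold change of -0.26.

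In crypt genes, X17SI4 was within the range of the low cys libraries. The stem and proliferating cell markers (7 of 7 in the table) summed to 267.4 CPM in X17SI4, to between 68.9 and 185.5 CPM in the other normal cys libraries, and to between 157.4 and 303.9 CPM in the low cys libraries. The Paneth cell markers (5 of 5) summed to 2583 CPM in X17SI4, to between 375.5 and 1282 CPM in the other normal cys libraries, and to between 1629 and 2675 CPM in the low cys libraries. In the sum of the epithelial markers (16380 CPM) and of the stroma markers (29.9 CPM), X17SI4 was instead within the other normal cys libraries. The part of crypt, epithelial or stromal content in the tuft cell values was not tested.

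**Figure D4:**
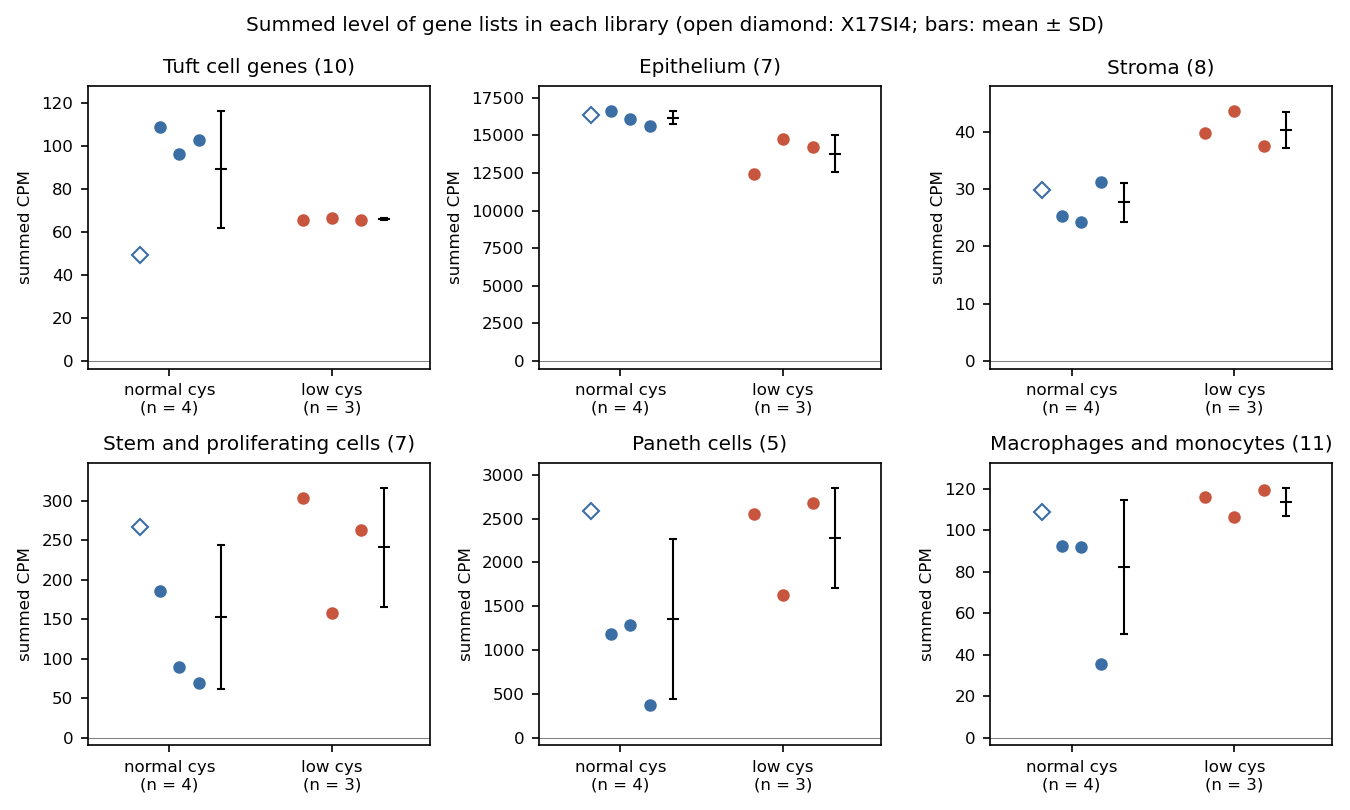
Summed CPM (vertical axes, 0 marked by a line) of the 10 tuft cell genes and of 5 lists of other cell types in each library, 1 point per mouse, with the mean ± SD in black. X17SI4 (open diamond) lies below all other libraries in the tuft cell panel. It lies within the low cys range in the stem cell, Paneth cell and macrophage panels. In the epithelium and stroma panels it lies with the normal cys libraries.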

How the data were processed

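The authors deposited raw counts per gene for 7 ileal libraries, without normalization, together with the exon length of each gene in bases. Per the paper's methods, poly(A)-selected stranded libraries were sequenced in paired reads of 50 bases, trimmed with TrimGalore, cleared of ribosomal reads with SortMeRNA, mapped by STAR (GRCm38), after which featureCounts summed exon reads per gene (Ensembl release 70). The strand setting and the treatment of reads that map to several places are not given in the sources used here. Groups were taken from the sample labels, and neither a batch nor a pairing is given.

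Genes were kept by edgeR's filterByExpr (minimum count 10, minimum total 15), scaled with TMM factors and compared by edgeR's quasi-likelihood test in its robust form (edgeR 4.0.16, R 4.3.3), with Benjamini-Hochberg adjustment over all 14869 genes. For correlations, 2 counts were added before log2 CPM was taken. DESeq2 (1.42.0), limma-voom with sample quality weights (limma 3.58.1), DESeq2's size factors, no TMM factors, no filter, at least 10 counts in every library, and the omission of each library were the alternatives. The fits were tested on simulated data. Symbols of listed genes that the table names otherwise were matched by gene identifier with GENCODE M21, which also served for the 50-base stretches. Promoter sequences came from RefSeq (GRCm38.p6).

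The members and lists were chosen with earlier results of these data known. The genes named are the 10 members, genes of the other lists with an unadjusted p-value under 0.05 or without overlap between the diets, the 3 most expressed genes of each further tuft cell list and the 5 genes with the most similar pattern. Further genes named were chosen after their values were seen. For 1 gene that met this rule no values are reported here, though the counts include it.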

Additional observations from a re-analysis of the deposited data

Results flagged for a closer look

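For the 4 mice on the normal diet, the gap that sets off an extreme value from the next one was taken as a share of their full range (Dixon's ratio), for the log2 CPM of each of the 10 tuft cell genes and for the log2 of their summed CPM. Of these 11 values, 3 were beyond Dixon's 95% critical value, which chance passes in about 1 in 20 groups. The lowest library was X17SI4 in each of them, and since the genes varied together the 3 are not independent. Il25 had a value of 0.969, with 0 counts in X17SI4 and 6 or 7 in the other normal cys libraries. Ptgs1 had a value of 0.903, with 4.02 CPM in X17SI4 against 7.93 to 8.53 CPM. The summed level had a value of 0.845, with 49.2 CPM in X17SI4 against 96.0 to 108.6 CPM.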

How the results depend on the processing

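In edgeR 0 genes of the whole table had an adjusted p-value under 0.05, in DESeq2 16 and in limma-voom with sample quality weights 4, and between 0 and 1 when 1 library was left out, the 1 without X32SI4. None of these was a tuft cell gene of the list. The unadjusted p-value was under 0.05 in 817 genes, in 1850 in limma-voom, and between 258 (without X23SI4) and 1764 (without X17SI4) with 1 library left out, among them 404 without SI9 and 522 without X10SI4. Of the 9 tested members 2 were under 0.05, 0 without TMM factors, and between 0 and 6 with 1 library left out. The 6 were found without X17SI4, 1 was found without X26SI4, and 0 without any of the other 5. Members without overlap between the diets went from 0 to 8, and other listed tuft cell genes lower at an unadjusted p-value under 0.05 from 5 to 14, both without X17SI4 and both chosen after the data were seen. Without TMM factors the median log2 fold change of all genes was 0.15, and that of the 9 members -0.35, and 126 of the 1032 genes under 0.05 were lower on the low cystine diet, against 421 of 817 with them. Ptgs1 changed direction without TMM factors (log2 fold change 0.12, exact permutation test, two-sided, p = 0.714), and had between -0.22 and 0.12 with 1 library left out (0.09 without X32SI4, 0.03 without SI9, 0.06 without X1SI4 and 0.12 without X23SI4). The other 8 tested members kept a negative estimate under all alternatives run, of which the strictest filter left out Gfi1b. The log2 ratio of the summed level was -0.43, and between -0.64 and -0.33 with 1 library left out. The causes were not tested. No paired analysis was possible because the labels give the groups no shared replicate numbers. Genes with few counts, Il25 and Gfi1b above all, are limited by depth.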
